A study of Mus musculus with 4 samples.

Results

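Retinoic acid synthesis and response in the embryonic nose was examined through 9 genes, picked by symbol for their roles as enzymes, binding proteins and receptors of retinoic acid, and all 9 were among the 13577 genes listed by bulk RNA-Seq of nasal process (NP) tissues. The NPs are the paired swellings around the nasal pit, made of mesenchyme that comes mostly from cranial neural crest cells (CNCCs) and covered by epithelium. The 4 libraries came from mouse embryos at E11.5, 2 titled control and 2 titled ca-*Acvr1* mutant. In the study's cross a floxed transgene for constitutively activated *Acvr1*, a type I BMP receptor, driven by the CAG promoter, from 1 line (A11), was recombined by *P0-Cre*, a driver active in the neural crest. Control embryos carried *P0-Cre* without the transgene, and mutants (called ca-*Acvr1(A11)* here) carried both. The study combined both sexes. Whether a library holds 1 embryo or several, and whether the replicates came from separate litters, is not given in the sources used here, so that p-values measure only the spread between these libraries.

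The labels contradict each other on the groups. Libraries with a control title carry the mutant's genotype entry, and libraries with a mutant title carry *P0-Cre* alone. Groups follow the titles, and should the genotype field be the correct one, each direction reported turns round. *Acvr1* itself measured 21.5 and 23.1 CPM in controls against 24.1 and 12.6 CPM in mutants (estimate −0.33 on the log2 scale, limma's adjusted p = 0.786). Reads were taken from the 3′ end of transcripts. Whether transcripts of the transgene are counted under *Acvr1* is not given in the sources used here. These values therefore cannot show which label is correct.

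Retinoic acid is made from vitamin A in 2 oxidation steps, from retinol to retinal by dehydrogenases such as RDH10, and from retinal to retinoic acid by ALDH1A enzymes. Binding proteins of the CRABP family carry it in the cytoplasm, enzymes of the CYP26 family degrade it, and receptors of the RAR family, paired with RXR, bind DNA and turn target genes on when the ligand is present. In the developing face, retinoic acid made in the epithelium of the eye and the nasal pit acts on the mesenchyme next to it, and both shortage and excess are known to disturb the midface and the nasal passages.

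RAR and RXR bind direct repeats of a 6-base half-site, of which the DR5 element, with a 5-base spacer, is the classical retinoic acid response element. It was searched on both strands in the RefSeq promoter windows of GRCm38.p6, each of which spans a start site. The half-site searched was AGGTCA, also with G in the first place, T in the third, or both. Of the 9 genes, 7 had such windows (13 in all), and *Aldh1a3* and *Crabp2* had none. A DR5 element was held by 1 window, that of *Rarb*. Among the 32851 windows of all genes 0.0974% held one. With the other genes of the pathway, 70 windows of 48 genes were searched and 2 held a DR5 element, the second being that of *Cyp26a1*, which encodes a retinoic acid-degrading enzyme. No DR2 element (a 2-base spacer) was found in these 70 windows, and 0.268% of all windows held one. Both windows are shown because they hold the element among the 70 searched. Each is 300 bases long, and sequence outside the windows was not searched. Capitals mark the DR5 element, which lies from 53 to 37 bases before the start site in *Rarb* (chr14:16575427-16575726, minus strand) and from 32 to 16 bases before it, reading on the opposite strand, in *Cyp26a1* (chr19:37697558-37697857, plus strand).
Rarb: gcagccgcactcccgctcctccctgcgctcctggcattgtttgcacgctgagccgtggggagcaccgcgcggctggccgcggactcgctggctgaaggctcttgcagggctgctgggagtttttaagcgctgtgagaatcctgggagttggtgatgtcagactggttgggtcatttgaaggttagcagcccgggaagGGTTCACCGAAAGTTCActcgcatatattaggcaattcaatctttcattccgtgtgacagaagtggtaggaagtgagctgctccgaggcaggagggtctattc
Cyp26a1: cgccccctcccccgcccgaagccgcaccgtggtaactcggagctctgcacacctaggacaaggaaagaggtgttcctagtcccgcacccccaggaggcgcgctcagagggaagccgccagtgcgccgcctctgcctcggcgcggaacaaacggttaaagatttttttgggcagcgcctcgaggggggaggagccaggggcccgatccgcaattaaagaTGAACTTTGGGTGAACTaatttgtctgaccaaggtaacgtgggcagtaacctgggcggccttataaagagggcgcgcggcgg
A match of letters is a description of the window and not a measured binding site. The levels of both genes are given below with the other members of their groups.

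The libraries were made with the QuantSeq 3′ kit, which takes reads from the 3′ end of a transcript, so that a level in CPM (the reads on a gene scaled to a common library total) does not grow with transcript length. The totals lay between 1956831 and 2408827 reads, and 1 read was worth from 0.415 to 0.511 CPM. The values of all 9 genes were whole numbers of reads. Fold changes are on the log2(CPM + 1) scale, ca-*Acvr1(A11)* minus control, from limma fitted to the 12462 genes with a mean above 1 CPM, and "called" means an adjusted p under 0.05 over all of them. An exact permutation test of 2 values against 2 has 0.333 as its smallest p.

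Of the 9 genes, 2 were called, *Crabp1* lower and *Aldh1a3* higher in ca-*Acvr1(A11)* NPs, and 7 were not. Among all genes tested 0.899% were called. At an unadjusted p under 0.05, 5 of the 9 passed (*Crabp1*, *Cyp26b1*, *Rarg* and *Rarb* lower, *Aldh1a3* higher), against 9.55% of all genes. These are also the 5 genes whose groups did not overlap, 4 lower and 1 higher, where 16.8% of all genes lay entirely lower and 21.9% entirely higher. The median log2 fold change of the 9 was −0.54, with 8 estimates below 0, beside 0.03 over all genes tested. The 9 genes were chosen with earlier results of these data known, so these shares are not those of an independent list. The number called depended on single libraries, and is given at the end beside that of all genes. With each library left out in turn, *Rarb* ranged from −0.87 to −0.37, *Rarg* from −0.86 to −0.22 and *Aldh1a3* from 0.72 to 1.17.

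**Figure D1:**
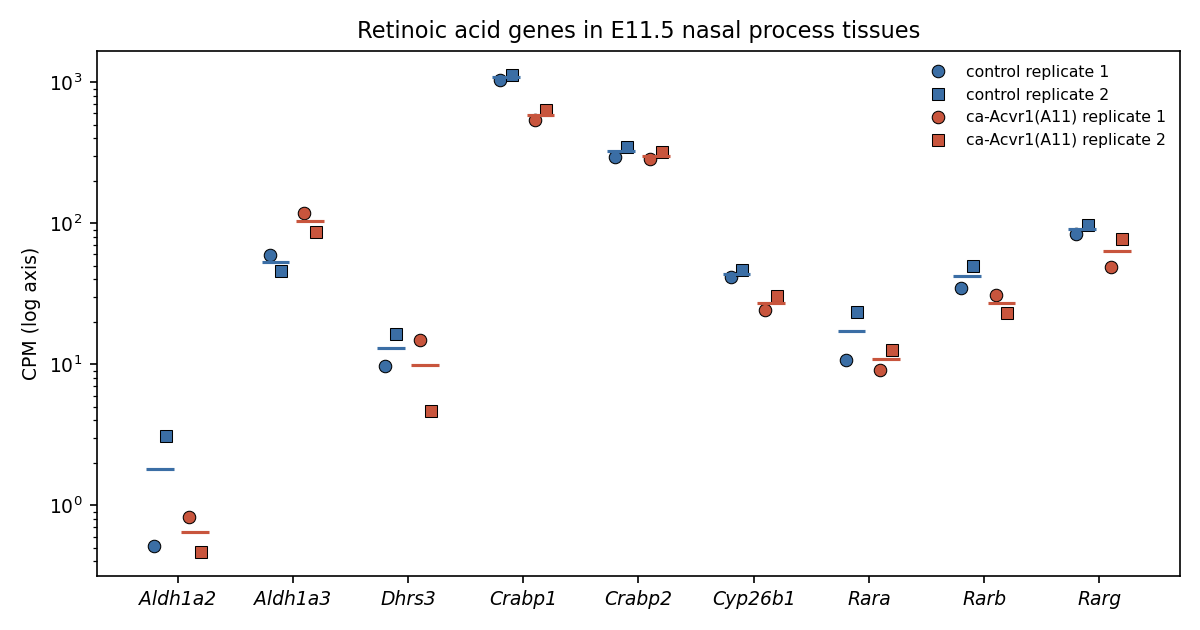
CPM of the 9 retinoic acid genes in each library on a log axis, with circles for replicate 1, squares for replicate 2, blue for control, red for ca-*Acvr1(A11)* and a line at each group mean (n = 2). *Crabp1* had the highest levels, between 538 and 1129 CPM, and *Aldh1a2* the lowest, between 0.468 and 3.11 CPM.

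The order of the mean control levels, each per transcript end, ran from *Crabp1* (1078 CPM) through *Crabp2* (323 CPM), *Rarg* (90.3 CPM), *Aldh1a3* (52.8 CPM), *Cyp26b1* (43.8 CPM), *Rarb* (42.2 CPM), *Rara* (17.1 CPM) and *Dhrs3* (13.1 CPM) to *Aldh1a2* (1.81 CPM). The values of *Aldh1a3*, *Cyp26b1* and *Rarb* overlapped in the control libraries, as did those of *Rara* and *Dhrs3*, so that their places in this order are not set apart. In the ca-*Acvr1(A11)* libraries *Aldh1a3* came next after the *Crabp* genes, at a mean of 103 CPM, above *Rarg* at 63.1 CPM.

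*Aldh1a3* (Entrez 56847) encodes the retinal dehydrogenase of the nasal and optic epithelium, and lies on chromosome 7 of GRCm38 from 66390890 to 66427517 on the minus strand. It measured 59.8 and 45.7 CPM in controls against 119 and 87.0 CPM in mutants (117 and 103 reads against 286 and 186). Both ca-*Acvr1(A11)* values lay above both control values. The group means were 52.8 ± 9.95 and 103 ± 22.4 CPM (SD, n = 2 each), 1.95 times as high in the mutant, and the log2 fold change was 0.95 (standard error 0.18, 95% interval 0.57 to 1.32, adjusted p = 0.00627 from limma). On the recovered reads DESeq2 estimated 0.94 and did not call it (adjusted p = 0.0798), and without ca-*Acvr1(A11)* replicate 1 it was 0.72 (adjusted p = 0.168 from limma).

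*Aldh1a2* (Entrez 19378, chromosome 9 from 71215789 to 71296243, plus strand), the dehydrogenase that makes retinoic acid in the trunk and in mesenchyme elsewhere in the embryo, was close to the limit of these libraries. It had 1 and 7 reads in control and 2 and 1 reads in ca-*Acvr1(A11)* libraries. With so few reads a difference was not detectable at this depth (log2 fold change −0.60, 95% interval −1.78 to 0.57, adjusted p = 0.823 from limma). The third enzyme of the kind, *Aldh1a1*, had 0 and 1 reads in control and 2 and 0 in ca-*Acvr1(A11)* libraries and fell under the filter on low values. Of the 3 *Aldh1a* genes, *Aldh1a3* thus held nearly all the reads in every library.

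*Dhrs3* (Entrez 20148, chromosome 4 from 144892827 to 144928209, plus strand) encodes a reductase that turns retinal back to retinol. It measured 9.71 and 16.4 CPM in controls against 14.9 and 4.68 CPM in mutants. The groups overlapped, and the lowest and 1 of the higher values both came from mutant libraries. The log2 fold change was −0.52 (95% interval −1.31 to 0.27, adjusted p = 0.740 from limma), and without ca-*Acvr1(A11)* replicate 2 it turned to 0.22.

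The binding proteins *Crabp1* and *Crabp2*, close relatives of which the first is a long-used marker of cranial neural crest and its mesenchyme are taken next. *Crabp1* (Entrez 12903) lies on chromosome 9 from 54764748 to 54773110 on the plus strand. It measured 1026 and 1129 CPM in controls against 538 and 635 CPM in mutants, and no mutant value came near the control values. The means were 1078 ± 73.0 and 587 ± 69.2 CPM (SD, n = 2 each), a mutant level 0.544 times that of control, and the log2 fold change was −0.88 (standard error 0.14, 95% interval −1.16 to −0.60, adjusted p = 0.000517 from limma). It was called under each of the 12 alternatives run, and the estimate nearest to 0 was −0.76.

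*Crabp2* (Entrez 12904), on chromosome 3 from 87948666 to 87953376 on the plus strand, measured 296 and 349 CPM in controls against 283 and 320 CPM in mutants. The groups overlapped. Its log2 fold change was −0.10, with a 95% interval from −0.38 to 0.19 that did not reach the estimate of *Crabp1* (adjusted p = 0.904 from limma). The ratio of *Crabp1* to *Crabp2* within a library, which no scaling between libraries can change, was 3.46 and 3.24 in control and 1.90 and 1.99 in ca-*Acvr1(A11)* libraries. The ratios of the groups did not overlap.

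*Cyp26b1* (Entrez 232174), the CYP26 enzyme with the most reads in these tissues, degrades retinoic acid and lies on chromosome 6 from 84571414 to 84593908 on the minus strand. It measured 41.4 and 46.2 CPM in controls against 24.1 and 30.4 CPM in mutants. Both mutant values lay below both control values. The log2 fold change of −0.67 (standard error 0.21, 95% interval −1.10 to −0.24) had an unadjusted p of 0.00357 and was not called (adjusted p = 0.185 from limma). *Cyp26a1*, whose promoter window is printed above, measured 5.62 and 5.33 CPM in controls against 7.89 and 6.08 CPM in mutants (estimate 0.29 on the log2 scale, limma's adjusted p = 0.874), and *Cyp26c1* was not among the genes listed. Neither *Cyp26a1* nor *Fabp5*, the 2 tested genes of the delivery and degradation list, was called by limma, edgeR or DESeq2 or had an unadjusted p under 0.05. The ratio of *Aldh1a3* to *Cyp26b1* was 1.44 and 0.990 in control and 4.93 and 2.86 in ca-*Acvr1(A11)* libraries. It sets a gene already seen higher over one already seen lower, so it adds nothing to their separate values. Retinoic acid itself was not measured.

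The 3 receptors had lower means in the mutant, with estimates of similar size, and none was called with all 4 libraries. With 1 library left out, whether *Rarg* and *Rarb* were called depended on which library it was. Such fits leave 1 library in a group, so only their estimates are given for the receptors. *Rarg* (Entrez 19411, chromosome 15 from 102234938 to 102257517, minus strand), the receptor known from mesenchyme that forms cartilage, measured 83.3 and 97.2 CPM in controls against 49.0 and 77.2 CPM in mutants. Its groups did not overlap, although the mutant replicates lay farther apart than the control ones. The log2 fold change was −0.54 (95% interval −0.93 to −0.15, adjusted p = 0.276 from limma). Without control replicate 1 it was −0.65, and without ca-*Acvr1(A11)* replicate 2 it was −0.86. Without ca-*Acvr1(A11)* replicate 1 it was −0.22, and without control replicate 2 it was −0.43.

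*Rarb* (Entrez 218772, chromosome 14 from 16430839 to 16819156, minus strand), itself a classical target of retinoic acid through the DR5 element shown above, measured 34.8 and 49.7 CPM in controls against 31.1 and 22.9 CPM in mutants. The groups did not overlap, by a small margin. The log2 fold change was −0.62 (95% interval −1.08 to −0.16, adjusted p = 0.308 from limma), and it was −0.87 without control replicate 1. It was −0.37 without control replicate 2, and leaving out ca-*Acvr1(A11)* replicate 2 gave −0.41. Its last exon, on chromosome 14 from 16430839 to 16432267, overlaps *Top2b* on the other strand, and the strand setting of the counting is not given in the sources used here. *Top2b* measured 810 and 783 CPM in controls against 756 and 803 CPM in mutants. No annotated gene overlaps the last exon of any of the other 8 genes.

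*Rara* (Entrez 19401, chromosome 11 from 98927818 to 98974942, plus strand), the broadly expressed receptor, measured 10.7 and 23.5 CPM in controls against 9.13 and 12.6 CPM in mutants, on 21 to 53 reads. The groups overlapped, and control replicate 2 alone stood high. The log2 fold change of −0.53 (95% interval −1.20 to 0.14, adjusted p = 0.671 from limma) was 0.00275 without that library. The 3 receptors together summed to 129 and 170 CPM in controls against 89.3 and 113 CPM in mutants.

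**Figure D2:**
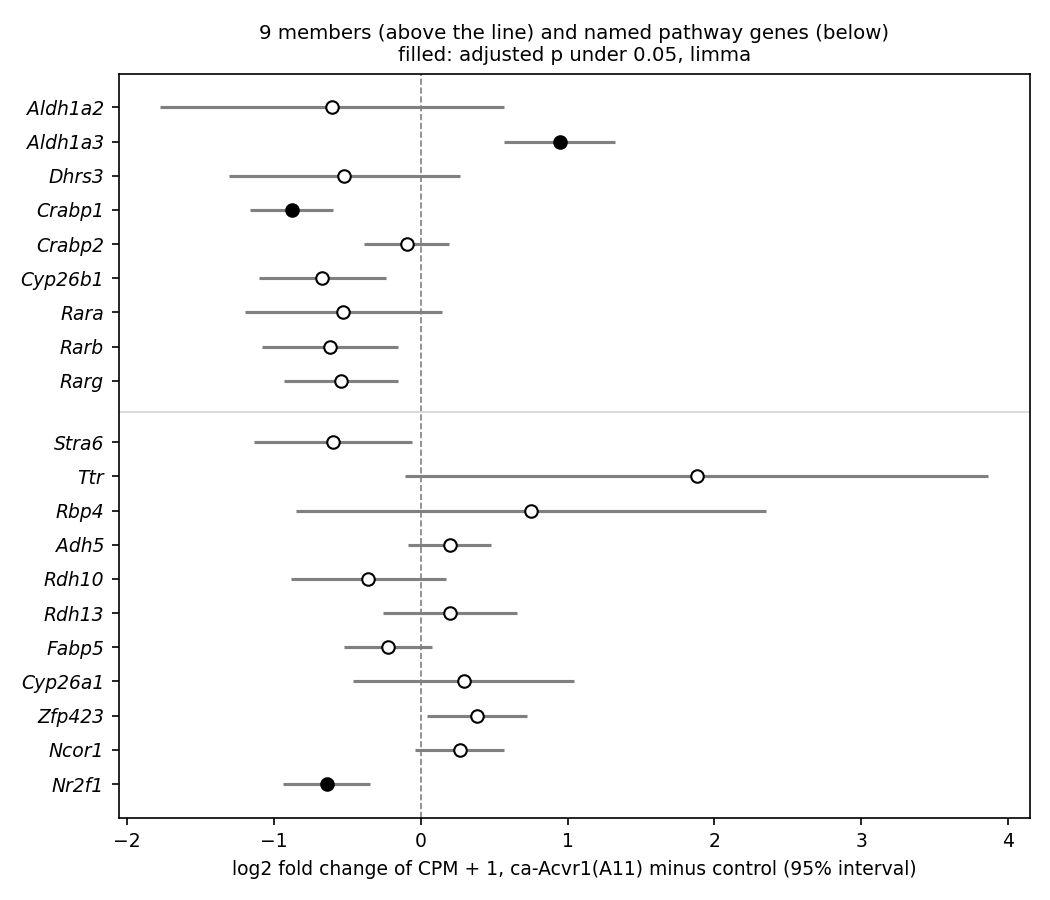
Log2 fold changes of CPM + 1, ca-*Acvr1(A11)* minus control, with 95% intervals from limma (n = 2 per group), for the 9 genes above the line and 11 other genes of the pathway below it, with filled points for an adjusted p under 0.05. Of the 9 genes *Crabp1* (−0.88) and *Aldh1a3* (0.95) are filled, and the 3 receptors lie between −0.62 and −0.53.

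The other genes of the pathway were read from lists of 58 genes, of which 38 were in the table and 35 were tested. Of these 1 was called, *Nr2f1*, which was lower, and 34 were not. At an unadjusted p under 0.05, 3 were higher and 3 lower. The median log2 fold change of the 35 genes was 0.16.

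In the list of retinol uptake and storage 6 of 9 genes were in the table, and 0 of the 5 tested were called by limma (1 at an unadjusted p under 0.05, and 0 by edgeR and DESeq2). *Stra6*, the cell-surface receptor for retinol bound to its carrier, measured 21.0 and 36.0 CPM in controls against 15.8 and 20.1 CPM in mutants (estimate −0.60 on the log2 scale, limma's adjusted p = 0.453). Its estimate was −0.97 and called without control replicate 1 (limma's adjusted p = 0.0274) and −0.22 without control replicate 2. The carrier *Rbp4* and its partner *Ttr* (transthyretin) were high in 1 library. *Ttr* had 1 and 6 reads in control and 0 and 158 reads in ca-*Acvr1(A11)* libraries, and *Rbp4* had 2 and 7 against 0 and 48 (adjusted p = 0.560 and 0.846 from limma). Without ca-*Acvr1(A11)* replicate 1 both were called higher, at 4.99 and 3.02 on the log2 scale, and without replicate 2 the estimates were −1.23 and −1.53. Looked up after these values had been seen, 9 genes of visceral endoderm and liver summed to 10.2 and 19.1 CPM in controls against 10.4 and 255 CPM in mutants, led by *Afp* at 194 CPM in ca-*Acvr1(A11)* replicate 2. This library thus stood apart from the other 3 in secreted carriers of retinol. Without it the log2 fold changes of *Crabp1* and *Aldh1a3* were −1 and 1.17.

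Among the enzymes that act on retinol and retinal 8 of 17 genes were in the table, and 0 of the 7 tested were called by limma (0 also at an unadjusted p under 0.05, and 0 by edgeR and DESeq2). *Rdh10*, the main retinol dehydrogenase of the embryo, measured 22.0 and 20.9 CPM in controls against 14.5 and 18.7 CPM in mutants, so that its groups did not overlap (estimate −0.36 on the log2 scale, limma's adjusted p = 0.731). *Adh5* and *Rdh13* both had estimates of 0.20 on the log2 scale (limma's adjusted p = 0.721 and 0.860). *Fabp5*, a fatty acid-binding protein that can also carry retinoic acid, had an estimate of −0.22 on the log2 scale (limma's adjusted p = 0.690).

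All 13 genes of the list of RXR receptors and coregulators were tested and 0 were called by limma (1 at an unadjusted p under 0.05, and 0 by edgeR and DESeq2). Those with the smallest p were *Zfp423*, a cofactor of RAR, and the corepressor *Ncor1*, at 0.38 and 0.26 on the log2 scale (limma's adjusted p = 0.436 and 0.617). That of *Ncor1* was 0.50 and called without control replicate 1 (limma's adjusted p = 0.0162) and 0.03 without control replicate 2. The partner receptors *Rxra* and *Rxrb*, named after their values were seen, had log2 fold changes of −0.02 and −0.21, and both 95% intervals spanned 0 (−0.44 to 0.39 and −0.65 to 0.24). *Rxrg* had between 0 and 4 reads in each library.

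In the list of genes known to respond to retinoic acid 9 of 16 were in the table and 8 were tested, of which 1 was called and 7 were not, with 2 higher and 2 lower at an unadjusted p under 0.05. *Nr2f1*, an orphan nuclear receptor of neural crest and forebrain, measured 780 and 661 CPM in controls against 409 and 518 CPM in mutants. It fell by 0.64 on the log2 scale (standard error 0.14, adjusted p = 0.0215 from limma), and was not called without ca-*Acvr1(A11)* replicate 1 (adjusted p = 0.474 from limma). The other 3 genes at that unadjusted threshold, named after their values were seen, were not called. *Nr2f2*, a close relative of *Nr2f1*, had an estimate of −0.35 on the log2 scale (limma's adjusted p = 0.361), and the homeobox genes *Meis1* and *Meis2* were each at 0.44 (limma's adjusted p = 0.390 and 0.169). The groups did not overlap for any of the 3.

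Markers of the tissues that make up the NPs differed between the groups along with these genes. Of 12 markers of neural crest mesenchyme 9 were called lower by limma (6 by DESeq2), 3 were not called, and their levels summed to 1658 and 2056 CPM in controls against 886 and 909 CPM in mutants. Of 10 markers of epithelium 2 were called higher (*Epcam* and *Cdh1*, neither by DESeq2) and 8 were not called, with sums of 269 and 249 CPM in controls against 423 and 385 CPM in mutants. The 12 olfactory and neural markers summed to 1617 and 1512 CPM in controls against 2019 and 2083 CPM in mutants, with 0 called by limma, edgeR and DESeq2 and 7 higher at an unadjusted p under 0.05 from limma. The sums of the 6 endothelial markers (133 to 147 CPM) and of the 5 erythroid markers listed (6694 to 8468 CPM) overlapped between the groups. Eye markers were low, at sums of 32.4 to 58.5 CPM, with *Tyrp1* and *Cryaa* not among the genes listed. Sums of muscle markers lay between 3.07 and 4.57 CPM, and those of macrophage markers were 39.9 and 36.4 CPM in controls against 63.1 and 89.4 CPM in mutants. Of the 6 macrophage markers 1 was called higher (*Cx3cr1*, not by DESeq2). None of the endothelial, erythroid, eye and muscle markers was called by limma, edgeR or DESeq2 (the muscle markers fell under edgeR's filter), and 2 eye markers had an unadjusted p under 0.05 from limma. In bulk tissue, fewer cells of a type and less RNA per cell cannot be told apart, and the part of cell composition in the values of the 9 genes was not tested.

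Set against the mesenchymal sum of the same library, *Crabp1* was at 0.619 and 0.549 in control and at 0.607 and 0.699 in ca-*Acvr1(A11)* libraries. These ratios overlapped between the groups, where the CPM of *Crabp1* did not. The same ratio for *Crabp2* was 0.179 and 0.170 in control and 0.319 and 0.352 in the mutant, so that *Crabp2* stood higher relative to mesenchymal markers in both mutant libraries. For *Cyp26b1* it was 0.0250 and 0.0225 against 0.0272 and 0.0335, and for the summed receptors 0.0777 and 0.0829 against 0.101 and 0.124, both entirely higher in the mutant although the CPM values were lower. The mesenchymal sum of the mutant was 0.483 times that of control, against 0.622 to 0.934 for *Cyp26b1*, *Crabp2* and each receptor. These higher ratios thus follow from the separate values and add nothing to them. *Aldh1a3* relative to the sum of the epithelial markers was 0.222 and 0.183 in control and 0.281 and 0.226 in ca-*Acvr1(A11)* libraries, entirely higher by a margin smaller than the spread of either group. Relative to the olfactory and neural sum it was 0.0370 and 0.0303 against 0.0588 and 0.0418. The mesenchymal sum is weighted toward abundant markers, with *Col1a2* alone at 540 and 617 CPM in controls against 246 and 240 CPM in mutants. No test was applied to these ratios, given 2 libraries per group.

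**Figure D3:**
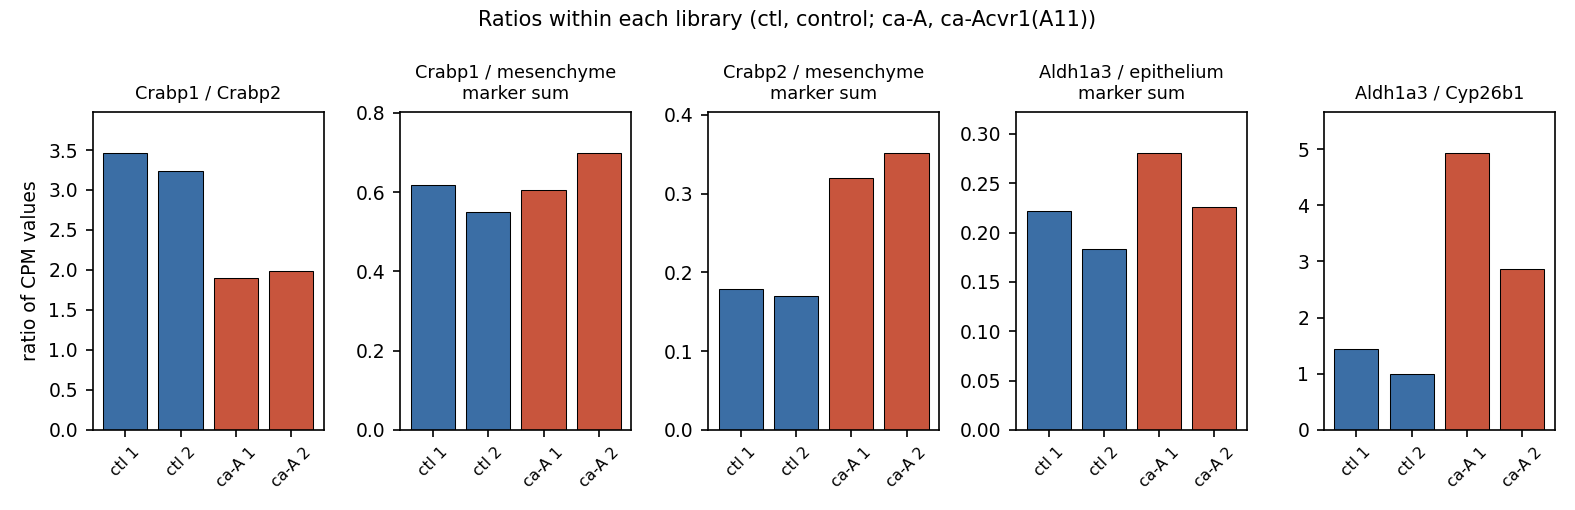
Ratios of CPM values within each library, with bars from 0 for control replicates 1 and 2 (blue) and ca-*Acvr1(A11)* replicates 1 and 2 (red). *Crabp1* over the summed mesenchymal markers overlaps between the groups (0.549 to 0.699), while *Crabp1* over *Crabp2* (3.46 and 3.24 against 1.90 and 1.99) does not.

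The genes closest in pattern to each of the called members were found among the 6568 genes with a mean of at least 20 CPM, by the Euclidean distance of log2(CPM + 1) centred over the 4 libraries. For *Crabp1* they were *Alx4*, a homeobox gene of the frontonasal mesenchyme and one of the mesenchymal markers above (distance 0.11), *Emp1* (0.12) and *Ntan1* (0.15). *Alx4* went from 80.7 and 93.2 CPM to 42.8 and 46.8 CPM. For *Aldh1a3* they were *Foxred1* (0.25), the keratin *Krt18*, one of the epithelial markers above (0.27) and *Perp*, which encodes a protein of desmosomes (0.27). *Perp* went from 25.0 and 19.1 CPM to 45.7 and 43.5 CPM. With 4 libraries many genes share such a pattern, and the distances are given as a description only.

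**Figure D4:**
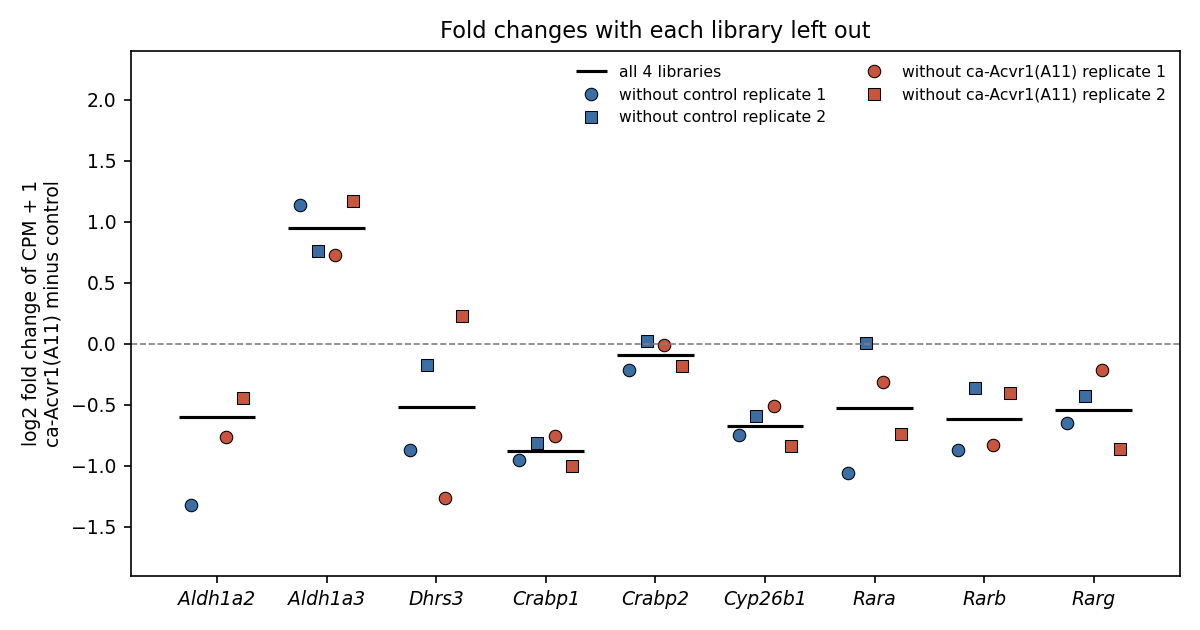
Log2 fold changes of CPM + 1 for the 9 genes with each library left out in turn, blue for an omitted control and red for an omitted ca-*Acvr1(A11)* library, with a line for all 4 libraries. *Crabp1*, *Cyp26b1*, *Rarb* and *Rarg* stayed below 0 and *Aldh1a3* above it in all 4 omissions, while *Dhrs3*, *Crabp2* and *Rara* crossed 0 in 1 each, and *Aldh1a2* fell under the filter without control replicate 2.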

How the data were processed

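Bulk RNA-Seq was performed by the authors on E11.5 NP tissues with TRIzol RNA and QuantSeq 3′ libraries. The submitters' processing notes list STAR, featureCounts 1.6.4, DESeq2 and mm10, with no role or order, and neither the annotation nor the strand setting is given in the sources used here. The authors deposited CPM values, scaled to library totals, for 13577 genes, and 0 columns of values were unused. Library totals were recovered from the smallest step between values, and 99.921% of the 54308 values were whole reads within 0.02 reads. The other 43, in 22 genes, are in none of the genes of the lists used here, and all values were used as deposited, rounded to whole reads for count tests.

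Groups followed the titles. The main test was limma 3.58.1 (R 4.3.3) on log2(CPM + 1), with a filter at a mean of 1 CPM, variances moderated along a trend with mean level, and Benjamini-Hochberg adjusted p over all genes of the fit. Alternatives were a pseudocount of 0.1 CPM, no filter, a filter at 10 CPM, TMM and RLE scaling, edgeR 4.0.16 and DESeq2 1.42.0 on the recovered reads, the replicate number as a block, and each library left out. Scripts were tested on simulated data. The 9 genes and the lists were chosen with earlier results of these data known. All 9 genes were named, with every called gene of each pathway list or else its 3 genes of smallest p, the 3 genes nearest in pattern to each called member, and the targeted gene, and 1 gene that this rule names is not reported here. Positions are from GENCODE M21 (GRCm38), which is the build mm10, and promoter windows are RefSeq's for GRCm38.p6. *P* values and counts cover the spread between these libraries only. Tables were made with Python 3.11.15, pandas 2.3.3 and numpy 2.4.6, and plots with matplotlib 3.10.9.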

Additional observations from a re-analysis of the deposited data

How the results depend on the processing

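Of the 9 genes 2 were called, 1 with DESeq2 on the recovered reads, and from 1 to 4 with 1 library left out. Of the other pathway genes 1 was called, 2 with the replicate block, and from 1 to 4 with 1 library left out. Of all genes 112 were called, 39 with DESeq2, 229 with the replicate block, and from 93 to 465 with 1 library left out, the highest without control replicate 1. A lone library left in a group is assumed to vary like the other group. Same-numbered libraries did not deviate together (correlation 0.0671 across 12462 genes) and share only a number, so the block, which gave adjusted p of 0.0699 for *Cyp26b1* and 0.0733 for *Rarg*, is not read as a pairing.

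The sign of the log2 fold change turned for *Dhrs3* (0.22, without ca-*Acvr1(A11)* replicate 2), *Crabp2* (0.021) and *Rara* (0.00275, both without control replicate 2), for *Ttr* (−1.23) and *Rbp4* (−1.53) without ca-*Acvr1(A11)* replicate 2, and for *Rbp4* (−0.34) with a pseudocount of 0.1 CPM. With 1 library left out, *Dhrs3* ranged from −1.27 to 0.22, *Crabp2* from −0.21 to 0.021, *Rara* from −1.06 to 0.00275, *Ttr* from −1.23 to 4.99 and *Rbp4* from −1.53 to 3.02. The causes were not tested. Of 233 values of single genes under alternatives, 215 kept their direction and side of the threshold, 3 lost and 9 gained a call. At these depths *Aldh1a2* and *Aldh1a1* were too shallow to compare.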
